A study of Mus musculus and Homo sapiens with 18 samples.

Results

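The genes of oxidative phosphorylation (OXPHOS) were followed in 3 systems in which Qk (human QKI), the gene of the RNA-binding protein Quaking, was deleted. Members were chosen by symbol alone, as the Ndufa, Ndufb, Ndufc, Ndufs and Ndufv genes, Sdha to Sdhd, the Uqcr genes, Cox4 to Cox8, the Atp5 genes and the protein genes of the mitochondrial genome. This gave 97 of 46882 genes in the mouse lens table, of which 84 were nuclear and 13 mitochondrial. The NLPC table covers lens progenitor-like cells that were grown from mouse neural stem cells, and there 97 of 54838 genes were members, with the same split of 84 and 13. In the table of HLE-B3, an established human lens epithelial cell line, 101 of 60880 genes were members, 88 nuclear and 13 mitochondrial. Pseudogene rows with a member's symbol were left out, 4 in the lens table, 12 in the NLPC table and 153 in the HLE-B3 table.

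RNA-seq counts were available for 18 libraries, 3 controls and 3 deletion samples in each system. Lenses were taken from C57BL/6 mice between postnatal days 17 and 19, after tamoxifen (20 μL of 10 mg/mL) on days 7 and 8 in both groups. Qk-iCKO mice were Nestin-CreERT2;QkL/L, in which tamoxifen removes Qk in cells that express the Nestin-driven recombinase, while Ctrl mice, labelled Nestin-CreERT2;QkL/+ in all 3 libraries, carried the same recombinase and 1 floxed allele. NLPCs came from neural stem cells of postnatal day 1 Nestin-CreERT2;QkL/L brains. They were deleted in culture with 100 nM 4-hydroxytamoxifen (Qk-/-) or left undeleted (WT), and differentiated with Noggin at 100 ng/ml for 6 days and then bFGF (100 ng/ml), BMP4 (20 ng/ml) and BMP7 (20 ng/ml) for 12 days. No drug is given for the WT cells, so effects of the drug or the active recombinase cannot be told apart from deletion in NLPCs. HLE-B3 QKI KO cells were a puromycin-enriched pool after lentiviral CRISPR-Cas9, compared with WT cells. No vector or selection is described for the WT cells, so effects of virus, Cas9 or puromycin cannot be told apart from deletion in HLE-B3. Per the study's methods the lenses came from 3 mice per group. For the cell systems the study gives only a general statement that replicates were independent, and the labels do not tie libraries to separate cultures, so p-values there measure the spread between these libraries, which may be technical.

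OXPHOS takes place in the inner mitochondrial membrane. Complexes I (NADH dehydrogenase), III (cytochrome bc1) and IV (cytochrome c oxidase) pump protons while electrons pass to oxygen, complex II (succinate dehydrogenase) feeds electrons in from the tricarboxylic acid cycle, and complex V (ATP synthase) makes ATP from the gradient. Every complex except II mixes subunits encoded by the nucleus with a few encoded by mitochondrial DNA, which is transcribed as long strands that are cut into single RNAs. Members were assigned to complexes by the start of their symbol alone. This counts Ndufa4 and Ndufa4l2 in complex I and Atp5sl in complex V, and the place of each protein was not checked. Lens epithelial cells hold mitochondria, and maturing fibre cells degrade theirs together with their nuclei.

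Total counts per library were 10319320 to 16425331 in lens, 28154202 to 68243360 in NLPCs and 69190864 to 81384471 in HLE-B3. Lens Qk-iCKO 1 stood apart, with 56.3% of its counts on crystallin genes against 64.7% to 66.9% in the other 5 lenses and a TMM scaling factor of 1.48 against 0.888 to 0.962, so values that rest on it are also given without it. The 4 Y-linked genes Ddx3y, Eif2s3y, Kdm5d and Uty summed to 1051 and 930 counts in Qk-iCKO 2 and 3 and to 0 to 3 in the other 4 lenses. In values given without Qk-iCKO 1, deletion and sex therefore divide the lenses alike and cannot be told apart. With all lenses they are only partly separable. No Ctrl lens held more than 3 Y-linked counts, and among Qk-iCKO lenses only Qk-iCKO 1 was this low. Macrophage markers summed to 1.91 to 3.71 CPM in Ctrl lenses and to 94.7 to 134 CPM in Qk-iCKO lenses, with 6 of 6 tested markers higher. Endothelial markers summed to 3.65 to 6.93 CPM in Ctrl and 10.8 to 21.7 CPM in Qk-iCKO lenses (2 of 4 higher), fibroblast markers to 63.7 to 79.2 and 104 to 173 CPM (1 of 4 tested higher), and neural markers to 44.8 to 54.4 and 61.9 to 82.5 CPM (1 of 5 tested higher). Lens fibre markers summed to 268961 to 288483 CPM in Ctrl and 143003 to 246676 CPM in Qk-iCKO lenses (1 of 8 tested lower, median log2 fold change -0.51). The part of these lists in the lens results was not tested. In bulk tissue, fewer cells of a type and less RNA per cell cannot be told apart. In lens, Qk was at 116 to 127 CPM in Ctrl and 86.9 to 106 CPM in Qk-iCKO, which did not overlap, and the log2 difference of -0.31 (SE 0.14, adjusted p = 0.200) did not pass. The NLPC libraries labelled Qk-/- held more Qk RNA than WT (log2 difference 0.41, SE 0.09, adjusted p = 0.0270), so they are named here by that label alone. These are counts over the whole gene, while the floxed allele loses a single exon. At the protein level the study reported Qki lost from the treated stem cells and NLPCs, as detected with a Qki-5 antibody. In reporter-positive lens cells it reported the isoform Qki-5 nearly absent, but the isoform Qki-6 only partly lowered. The 9 lens fibre markers summed to between 0.810 and 4.75 CPM in NLPCs, where neural markers summed to between 3013 and 3963 CPM, and to between 3.54 and 8.08 CPM in HLE-B3. In HLE-B3 QKI was lower in the KO pool (log2 difference -1.34, SE 0.05, adjusted p = 1.85e-11).

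Several mouse mitochondrial genes have near-identical copies in the nucleus. The stretches printed here show how close they are, with differing bases in capitals. The first pair is the start of mt-Co2 (complex IV, mitochondrial positions 7013 to 7072 on the + strand, GRCm38) and of Gm28661, and over 681 aligned bases they differed at 0 positions. The second is the start of mt-Nd3 (complex I, positions 9459 to 9518, + strand) and Gm28438, with 1 difference in 345 bases. The third is a human pair, from MT-ATP6 (complex V, positions 8647 to 8706, + strand, GRCh37) and MTATP6P1, with 10 differences in 681 bases. All were read from GENCODE transcripts.
mt-Co2: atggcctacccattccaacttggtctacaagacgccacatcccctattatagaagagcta
Gm28661: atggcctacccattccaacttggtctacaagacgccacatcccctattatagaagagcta
mt-Nd3: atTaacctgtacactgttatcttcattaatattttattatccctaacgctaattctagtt
Gm28438: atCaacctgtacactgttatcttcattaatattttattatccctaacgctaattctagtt
MT-ATP6: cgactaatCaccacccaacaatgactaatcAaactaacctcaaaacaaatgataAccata
MTATP6P1: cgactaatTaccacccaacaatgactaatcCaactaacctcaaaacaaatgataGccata

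The share of each gene's 50-base windows that also occurs unchanged in an annotated transcript from another chromosome was 100.0% for mt-Co2, 99.9% for mt-Co3, 99.5% for mt-Atp6, 98.8% for mt-Nd4l and 98.0% for mt-Nd3. It was 62.2% for mt-Nd4, 51.1% for mt-Co1, 8.2% for mt-Nd2, 7.6% for mt-Nd5, and 0 for mt-Nd1, mt-Nd6, mt-Atp8 and mt-Cytb. In WT NLPCs the mean level was 18657 CPM per kb for mt-Co1 and 11842 CPM per kb for mt-Cytb, against 3.32 for mt-Co2 and 3.63 for mt-Co3, which encode other subunits of the same complex IV. Counts on the copies ranged widely. Gm28661 had 42 to 744 counts per NLPC library, against 50 to 243 for mt-Co2 itself, and 3 to 11 per lens library. In Qk-/- 1 it had 744 counts and mt-Co2 243. Gm28438 had 13 to 76 counts in NLPCs, against 218 to 291 for mt-Nd3. Gm13340, a copy of part of mt-Co1, had 638 to 1487 counts per NLPC library, and mt-Co1 had 808694 to 2045115. mt-Atp8 was low in NLPCs too (1.2 CPM per kb in WT, 11 to 60 counts per library) with no shared window. It overlaps mt-Atp6 by 43 bases. In human the highest share was 49.5% (MT-CO1), below the highest in mouse, while MT-ND1 (22.1%), MT-ND2 (43.6%), MT-ND6 (17.9%), MT-ATP8 (8.2%) and MT-CYB (1.2%) had higher shares than their mouse counterparts. MTATP6P1 had 11842 to 15701 counts per HLE-B3 library, against 57645 to 72278 for MT-ATP6. MT-CO2 was the highest gene per kb in WT HLE-B3 at 2954 CPM per kb. The part of these copies in the counts was not tested, and the levels of mt-Co2, mt-Co3, mt-Atp6, mt-Nd3 and mt-Nd4l in mouse are given as uncertain.

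**Figure D1:**
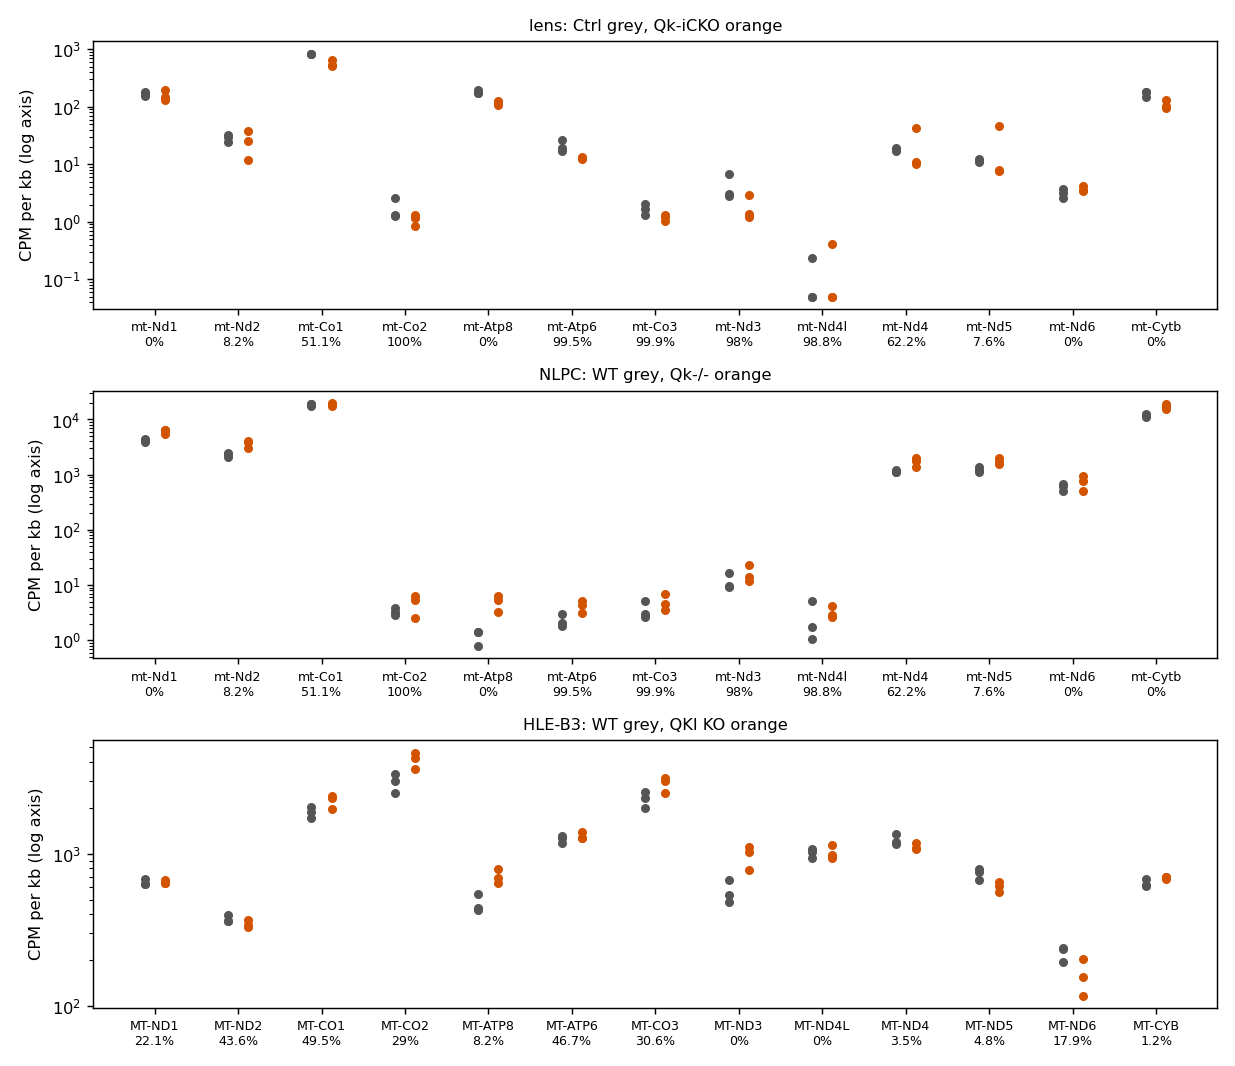
Level of the 13 mitochondrial protein genes in genome order, in normalised CPM per kb of gene on a log axis, with 1 point per library (grey control, orange deletion; values of 0 are drawn at 0.05). The percentage under each name is the share of its 50-base windows found in transcripts from other chromosomes, and in NLPCs mt-Co1 lies near 18657 CPM per kb while mt-Co2 lies near 3.32.

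In the lens, the nuclear OXPHOS genes gave a single call, the muscle and heart isoform Cox6a2. Of 79 tested, 1 was higher (against 8.38% of all 12201 genes tested) and 0 were lower (3.88% of all genes) by the edgeR quasi-likelihood test at a Benjamini-Hochberg adjusted p under 0.05; 2 were lower at an unadjusted p under 0.05, and DESeq2 gave 1 higher and 0 lower. Their median log2 fold change (Qk-iCKO minus Ctrl) was -0.16, with 66 below 0, against 0.01 over all genes. Without Qk-iCKO 1 that median was 0.00084. In 3 members all Qk-iCKO libraries lay above all Ctrl libraries and in 6 below, shares to read against 18.2% and 17.1% of all genes.

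Cox6a2 (chr7:128205435-128206387, - strand, GRCm38) encodes the form of subunit VIa of complex IV that replaces Cox6a1 in skeletal muscle and heart. Its level was 0.746, 0.214 and 0.824 normalised CPM in the Ctrl lenses and 6.57, 7.26 and 19.9 in the Qk-iCKO lenses, from 9, 3 and 12 against 107, 75 and 197 counts. All Qk-iCKO lenses were above all Ctrl lenses, Qk-iCKO 3 by the widest margin. The log2 fold change was 4.22 (SE 0.62, adjusted p = 0.00618). Its widely expressed counterpart Cox6a1 measured 97.5, 101 and 98.7 CPM in Ctrl and 70.3, 98.6 and 95.2 in Qk-iCKO lenses, which overlapped (-0.17, SE 0.17, adjusted p = 0.543). Per kb, Cox6a2 reached 16.5 CPM in Qk-iCKO lenses, against 125 for Cox6a1. None of the 10 skeletal muscle markers passed the test (3 tested), and their sum was 18.3 to 26.5 CPM in Ctrl and 14.8 to 17.7 CPM in Qk-iCKO lenses. The higher macrophage marker sum in the same lenses is given above, and its part in the Cox6a2 level was not tested.

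The other paired isoforms did not pass the test in lens. Cox6b2, the testis form of Cox6b1, gave 0.56 on the log2 scale (SE 0.45, adjusted p = 0.456), with 2.33 CPM in Qk-iCKO 1 and 0.829 to 1.17 CPM in the other 5 lenses. Cox4i2, Cox7a1, Cox7b2, Cox8b and Cox8c were too low to test, at no more than 0.968 CPM in any lens. Cox7a1, the muscle form of subunit VIIa, was at 0.0686 to 0.166 CPM in Ctrl and 0.368 to 0.968 CPM in Qk-iCKO lenses. These levels rest on 2, 2 and 1 counts in Ctrl and 6, 10 and 5 in Qk-iCKO lenses. Cox4i2 went the other way, with 4, 13 and 13 counts in Ctrl and 3, 1 and 3 in Qk-iCKO lenses. Cox7b2, Cox8b and Cox8c held 3 counts or fewer in every lens. Ndufa4l2, a hypoxia-linked paralogue of Ndufa4, gave 0.29 on the log2 scale (SE 0.39, adjusted p = 0.681). The 3 genes of ATP synthase subunit c, Atp5g1, Atp5g2 and Atp5g3, gave -0.28, -0.03 and 0.06 on the log2 scale.

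Among the 4 subunits of complex II, none passed the test in lens. The membrane anchors lay above 0, and the catalytic subunits lay below it by less than their SE. Sdhc was at 6.71, 10.3 and 8.31 CPM in Ctrl and 13.1, 12 and 10.9 in Qk-iCKO lenses. Sdhd was at 17.2, 14.8 and 16.4 CPM in Ctrl and 23.9, 18.2 and 18.5 in Qk-iCKO lenses. For both anchors the groups did not overlap, but the log2 fold changes of 0.51 (SE 0.19) and 0.33 (SE 0.16) had adjusted p = 0.127 and 0.225. Sdha, the flavoprotein, and Sdhb, the iron-sulphur subunit, gave -0.12 (SE 0.14) and -0.15 (SE 0.21), with overlapping groups.

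**Figure D2:**
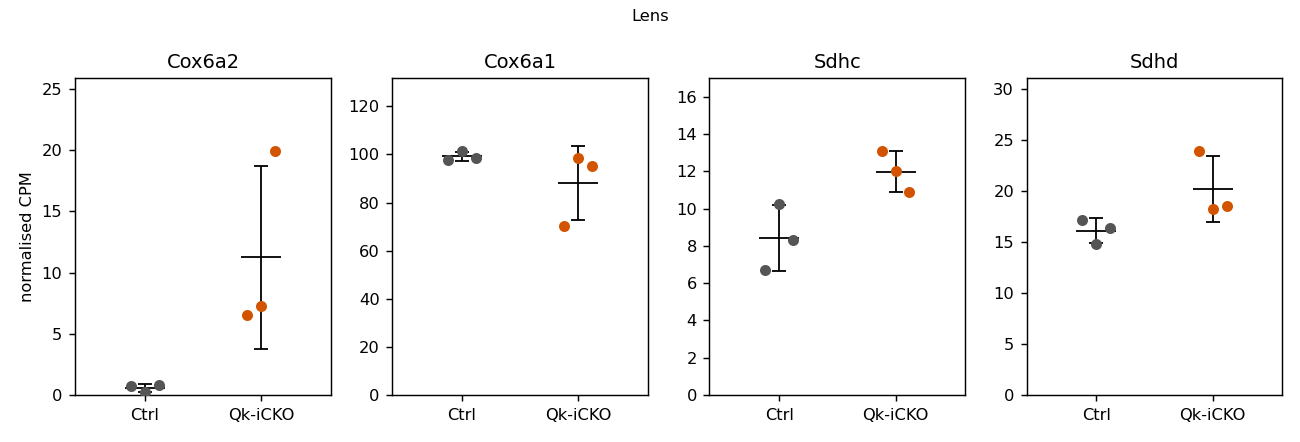
Normalised CPM of Cox6a2, its counterpart Cox6a1 and the complex II anchors Sdhc and Sdhd in each lens (points, with mean and SD), for 3 Ctrl and 3 Qk-iCKO lenses. Cox6a2 lies at 6.57 to 19.9 CPM in Qk-iCKO lenses against 0.214 to 0.824 in Ctrl, and Cox6a1 overlaps between the groups.

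In NLPCs a minority of the nuclear genes passed, all of them lower. Of 79 tested, 8 were lower in the libraries labelled Qk-/- (5.96% of all 20371 genes tested) and 0 were higher (4.74% of all genes); by DESeq2 1 was higher and 17 lower, and at an unadjusted p under 0.05 1 was higher and 29 lower. The median log2 fold change was -0.25, with 72 of 79 below 0, against 0.04 over all genes. All Qk-/- libraries lay below all WT libraries in 35 members (19.3% of all genes) and above in 1 (15.9%). The count of 8 fell to 0 without Qk-/- 1, WT 1, WT 2 or WT 3, and was 17 without Qk-/- 2.

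Complex I, the largest complex with 37 tested genes, held 6 of the 8 (16.2% of its genes, median log2 fold change -0.22), against 1 of 4 in complex II (median -0.35) and 1 of 8 in complex III (median -0.35). Ndufa13 (GRIM-19), a membrane-arm subunit, was at 90.5, 94.8 and 103 CPM in WT and 56.5, 40.1 and 70.1 in Qk-/- libraries, a log2 fold change of -0.79 (SE 0.18, adjusted p = 0.0326). Ndufb7, which faces the intermembrane space, was at 47.3, 48.2 and 50.1 CPM in WT and 35.1, 28.1 and 35.3 in Qk-/- libraries (-0.56, SE 0.12, adjusted p = 0.0217). In both genes the groups did not overlap, and Qk-/- 2 was the lowest library. Ndufb6 followed at -0.51 (SE 0.13, adjusted p = 0.0462, or 0.0632 with the replicate number as a block). Ndufs6 and Ndufa9 were also lower.

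Sdhb (chr4:140961203-140979193, + strand, GRCm38) and Uqcr10 were the other two. Sdhb carries the iron-sulphur clusters of complex II, and was at 101, 110 and 108 CPM in WT and 72.4, 62.0 and 81.1 in Qk-/- libraries (-0.57, SE 0.11, adjusted p = 0.0183). Uqcr10, a small subunit of complex III, was at 30.7, 40.2 and 32.9 CPM in WT and 21.8, 15.9 and 22.8 in Qk-/- libraries (-0.78, SE 0.17, adjusted p = 0.0266). Neither overlapped between groups. Sdha, which binds the substrate next to Sdhb, was at 253 to 265 CPM in WT and 241 to 266 in Qk-/- libraries (-0.01, SE 0.08, adjusted p = 0.962), while Sdhc and Sdhd gave -0.35 and -0.34 with overlapping groups. No member of complexes IV or V passed, with medians of -0.22 and -0.23. Cox4i1, a core nuclear subunit of complex IV, had -0.31 (SE 0.10, adjusted p = 0.0854) with groups that did not overlap.

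Nuclear respiratory factor 1 (NRF1) is a known activator of many nuclear OXPHOS genes, and its site was looked for on both strands of RefSeq promoters (GRCm38.p6, 250 bases before to 50 after the start). Promoter sequences were matched for 68 of the 84 mouse nuclear members, the first listed promoter of each gene being used, and for 7 of the 8 genes lower in NLPCs. A long form of the site, GCGCA followed by any base and then GCGC, was searched first. It was held by 16 of the 68 promoters (23.5%), against 4.8% of the 27025 genes with a promoter sequence, and by 1 of the 7, Ndufs6. The shorter core TGCGCA, which reads the same on both strands and can overlap the long form, was searched second, with the first result known. It was held by 18 of the 68 (26.5%), against 8.1% of all 27025, and by 3 of the 7, Ndufs6, Ndufb6 and Ndufa9. The count among the genes lower in NLPCs therefore depends on which form is searched. The promoters of Ndufs6 (chr13:73328433-73328732, - strand) and Ndufb6 (chr4:40279372-40279671, - strand) are shown as 2 of these, with the core in capitals. No promoter sequence was matched for Cox6a2. Both forms were chosen after the data were seen, and a match describes letters only.
Ndufs6: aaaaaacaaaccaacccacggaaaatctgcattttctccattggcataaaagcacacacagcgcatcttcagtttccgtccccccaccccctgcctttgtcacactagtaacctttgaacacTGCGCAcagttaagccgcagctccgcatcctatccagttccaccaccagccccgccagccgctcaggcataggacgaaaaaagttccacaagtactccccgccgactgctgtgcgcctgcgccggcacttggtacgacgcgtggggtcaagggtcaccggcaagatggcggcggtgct
Ndufb6: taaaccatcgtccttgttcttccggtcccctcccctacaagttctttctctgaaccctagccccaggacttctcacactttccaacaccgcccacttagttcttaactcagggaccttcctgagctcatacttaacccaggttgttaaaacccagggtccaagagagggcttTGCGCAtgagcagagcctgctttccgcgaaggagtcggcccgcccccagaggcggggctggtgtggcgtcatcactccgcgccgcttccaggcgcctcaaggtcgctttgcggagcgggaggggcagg

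In HLE-B3 nuclear genes of every complex were higher in QKI KO cells, by small amounts. Of 82 tested, 41 were higher (17% of all 19049 genes tested) and 4 were lower (16.3% of all genes). The median log2 fold change was 0.21, with 66 above 0, against -0.02 over all genes. Groups did not overlap in 41 members that were higher in KO (22% of all genes) and in 5 that were lower (22.6%). By complex, 17 of 38 were higher in I, 2 of 4 in II, 5 of 9 in III, 7 of 12 in IV and 10 of 19 in V. The 82 tested members lie on many chromosomes, and less the median of the 50 nearest tested genes on the chromosome their median was 0.22, with 66 of 82 above 0.

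Small accessory subunits led the calls in complex I. NDUFB6 was at 6.23, 7.72 and 7.02 CPM in WT and 12.9, 12.3 and 13.7 in KO (log2 fold change 0.89, SE 0.12, adjusted p = 2.18e-05). NDUFB3 was at 10.8, 12.6 and 10.3 CPM in WT and 19.3, 18.2 and 19.3 in KO (0.75, SE 0.10, adjusted p = 2.31e-05), and NDUFC1 followed at 0.70. In these genes every KO library was above every WT library. In the opposite direction were NDUFA9 (-0.37, SE 0.12, adjusted p = 0.0255) and NDUFV2, a core subunit of the NADH-binding module (-0.35, SE 0.13, adjusted p = 0.0478). NDUFA9 was at 9.37 to 9.56 CPM in WT and 6.83 to 7.91 in KO.

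Complex II was divided between its anchors and its flavoprotein. SDHC was at 30.4, 30.7 and 35.1 CPM in WT and 45.1, 48.7 and 47.0 in KO (0.55, SE 0.08, adjusted p = 2.49e-05). SDHD was at 18.5, 14.7 and 16.3 CPM in WT and 25.9, 23.3 and 24.8 in KO (0.58, SE 0.10, adjusted p = 0.000163). SDHA was lower, at 131, 139 and 124 CPM in WT and 113, 106 and 121 in KO (-0.21, SE 0.06, adjusted p = 0.0214). The groups did not overlap for these 3 genes, and they did for SDHB (0.07, SE 0.08, adjusted p = 0.546).

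Complexes III to V gave calls of similar size. UQCR11, UQCR10 and UQCRB of complex III rose by 0.51, 0.49 and 0.35 on the log2 scale. In complex IV, COX6C was at 30.6, 31.7 and 29.5 CPM in WT and 46.9, 42.8 and 46.7 in KO (0.57, SE 0.07, adjusted p = 9.07e-06), with COX8A at 0.50 and COX6B1 at 0.41. COX4I1 (0.01, SE 0.06) and COX6A1 (0.11, SE 0.10) did not pass. In complex V, ATP5MG was at 18.8, 19.1 and 19.8 CPM in WT and 30.1, 35.1 and 34.5 in KO (0.79, SE 0.08, adjusted p = 1.49e-06). ATP5F1E, the epsilon subunit of the rotor stalk, and ATP5ME, a membrane subunit, rose by 0.69 and 0.50. ATP5F1A, the alpha subunit of the head, went the other way (-0.37, SE 0.07, adjusted p = 0.000392). It was at 190, 176 and 172 CPM in WT and 147, 125 and 144 in KO. Of the subunit c genes only ATP5MC3 passed (0.28, SE 0.08, adjusted p = 0.0110), with ATP5MC1 at 0.18 and ATP5MC2 at 0.30.

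**Figure D3:**
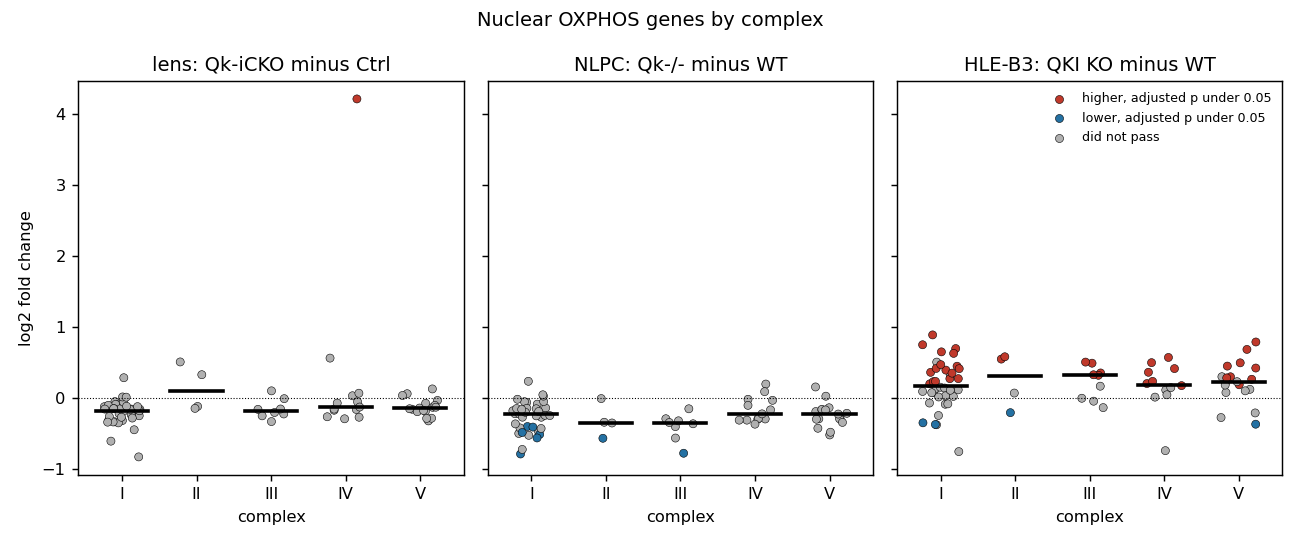
Log2 fold change of each tested nuclear OXPHOS gene by complex (points, black line the median of the complex) in lens, NLPCs and HLE-B3, with red for higher and blue for lower at adjusted p under 0.05. Lens shows the single call of Cox6a2 at 4.22, NLPCs 8 lower calls in complexes I to III, and HLE-B3 41 higher and 4 lower calls spread over the complexes.

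The change of the nuclear members in HLE-B3 was also set beside gene length. When genes were ranked by exon length into 5 equal bins, the 20 members in the shortest bin had a median log2 fold change of 0.36, against -0.04 over all 3779 genes of that bin, and the 32 in the second bin had 0.18 against 0.07. The 15 members in the middle bin had 0.11 against 0.02, the 4 in the fourth bin 0.07 against -0.03 and the 11 in the longest bin 0.23 against -0.09. Measured against the 50 tested genes nearest in exon length, the median of the 82 members was 0.24, with 63 above 0. The same measure, which was added after the data were seen, was -0.30 in NLPCs (8 of 79 above 0) and -0.10 in lens (20 of 78 above 0).

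Several members passed in both cell culture systems, which share no control. NDUFA9 was lower in both, at -0.40 in NLPCs and -0.37 in HLE-B3. NDUFB6, NDUFB7, NDUFS6 and UQCR10 were lower in NLPCs and higher in HLE-B3, UQCR10 at -0.78 and 0.49, and none of them passed in lens. The difference between the human and mouse systems was not tested.

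The share of all counts that fell on the 13 mitochondrial genes gave no exact permutation p under 0.1 in any of the 3 systems, and 0.1 is the smallest that 3 against 3 libraries allow. In lens it was 0.161%, 0.164% and 0.162% in Ctrl and 0.206%, 0.122% and 0.109% in Qk-iCKO, with Qk-iCKO 1 above and the other two below every Ctrl lens (exact permutation test, two-sided, p = 0.7). In NLPCs it was 5.50%, 5.04% and 5.04% in WT and 6.77%, 6.77% and 6.03% in Qk-/- libraries. These did not overlap, and the difference of 1.33 percentage points had p = 0.1 in the exact permutation test, the smallest p that 3 against 3 allow. In HLE-B3 it was 1.36%, 1.39% and 1.24% in WT and 1.45%, 1.37% and 1.5% in KO (difference 0.113 percentage points, exact permutation p = 0.2). The nuclear members together took 0.431% to 0.471% of counts in Ctrl and 0.466% to 0.474% in Qk-iCKO lenses, 0.713% to 0.770% in WT and 0.589% to 0.727% in Qk-/- NLPCs, and 0.353% to 0.371% in WT and 0.384% to 0.411% in KO HLE-B3.

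**Figure D4:**
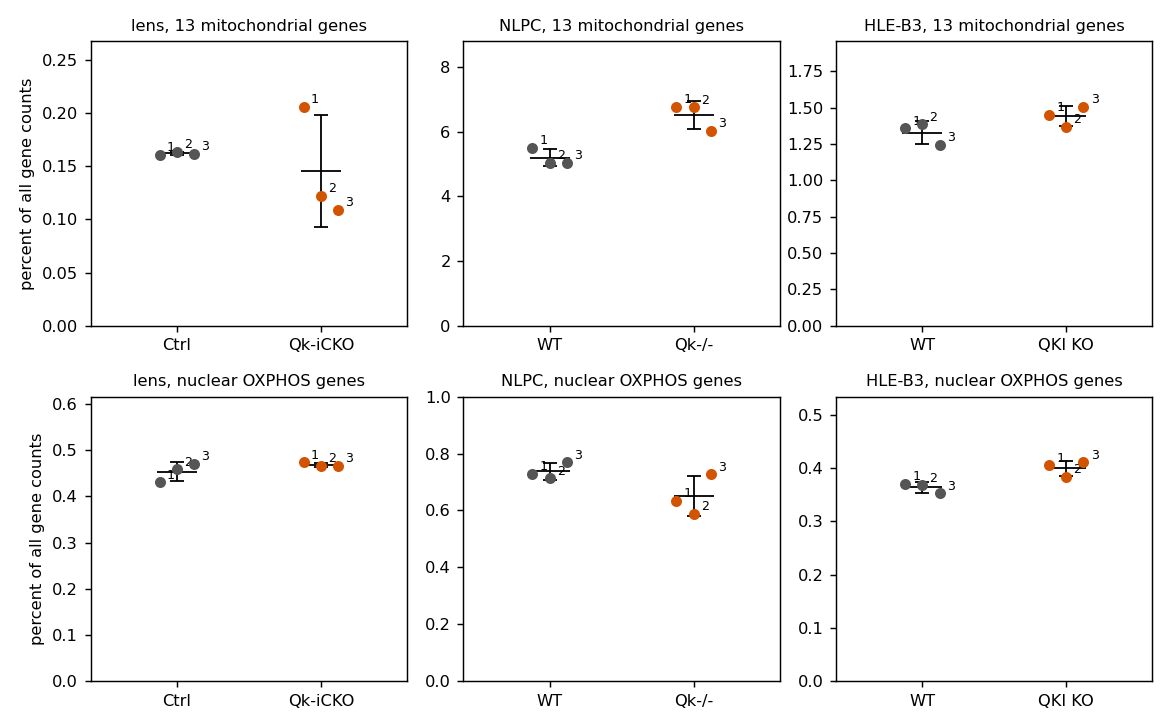
Percent of all gene counts on the 13 mitochondrial protein genes (top) and on the nuclear OXPHOS genes (bottom) in each library, numbered by replicate, with mean and SD. The 3 Qk-/- NLPC libraries lie at 6.03% to 6.77% of counts on mitochondrial genes, above the WT libraries at 5.04% to 5.50%.

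In the lens, 1 of 12 tested mitochondrial genes was lower (3.88% of all genes) and 0 were higher (8.38%), and their median log2 fold change was -0.50, against 0.01 over all genes. mt-Atp8, a small subunit of the ATP synthase membrane part, was at 35.4, 35.3 and 40.6 CPM in Ctrl and 26, 25 and 22.1 in Qk-iCKO lenses (log2 fold change -0.60, SE 0.14, adjusted p = 0.0294). mt-Cytb, the core of complex III, was at 210, 172 and 205 CPM in Ctrl and 149, 110 and 119 in Qk-iCKO lenses (-0.63, SE 0.17, adjusted p = 0.0561). mt-Co1, the catalytic subunit of complex IV, was at 1278, 1272 and 1306 CPM in Ctrl and 840, 1003 and 797 in Qk-iCKO lenses (-0.55, SE 0.18, adjusted p = 0.0930). In these 3 genes and in mt-Atp6 (-0.71, SE 0.19, adjusted p = 0.0551) every Qk-iCKO lens was below every Ctrl lens, as in 17.1% of all genes. The lens fibre marker sum was lower in the same lenses, as given above. With the replicate number as a block mt-Atp8, mt-Atp6 and mt-Cytb passed (3 lower, adjusted p = 0.0386, 0.0384 and 0.0389), and DESeq2 gave 4. Scaled by total counts alone none passed. The median of all genes then moved to 0.29, and the median of the 12 members stayed 0.51 below it. The call of mt-Atp8 was lost without any of the 3 Ctrl lenses, Qk-iCKO 2 or Qk-iCKO 3. Without Qk-iCKO 1, where deletion cannot be told apart from sex, 5 genes were lower.

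The complex I subunits of the mitochondrial genome did not move together in lens. mt-Nd1 (-0.09, SE 0.19) and mt-Nd2 (-0.18, SE 0.37) overlapped between groups. mt-Nd5 was at 20.2, 20.5 and 22.5 CPM in Ctrl and 84.7, 14.7 and 13.8 in Qk-iCKO lenses, and mt-Nd4 at 26, 23.7 and 25.6 against 58.2, 14.1 and 14.8. In both genes Qk-iCKO 1 was above and the other Qk-iCKO lenses below all Ctrl lenses. Their log2 fold changes of 0.85 and 0.22 became -0.56 and -0.79 without Qk-iCKO 1. mt-Nd6, which overlaps mt-Nd5 by 14 bases on the opposite strand, was at 1.33 to 1.92 CPM in Ctrl and 1.82 to 2.21 in Qk-iCKO lenses. mt-Nd3, mt-Co2 and mt-Co3, with their nuclear copies, had -1.26, -0.63 and -0.46 from 35 counts or fewer per library and did not pass. mt-Nd4l held at most 2 counts in a lens and was not tested.

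In NLPCs 5 of 13 mitochondrial genes were higher in the libraries labelled Qk-/- (4.74% of all genes) and 0 were lower (5.96%), with a median log2 fold change of 0.52 against 0.04 over all genes. The 5 were mt-Nd1, mt-Nd2, mt-Nd4 and mt-Nd5 of complex I and mt-Cytb of complex III. mt-Nd2 was at 2481, 2584 and 2152 CPM in WT and 4124, 4203 and 3158 in Qk-/- libraries (0.67, SE 0.13, adjusted p = 0.0168). mt-Cytb was at 13917, 14214 and 12509 CPM in WT and 21455, 20182 and 17431 in Qk-/- libraries (0.54, SE 0.10, adjusted p = 0.0149). The groups did not overlap in any of the 5 or in mt-Atp6 and mt-Atp8, 7 members higher in every Qk-/- library (15.9% of all genes), and mt-Nd1, mt-Nd4 and mt-Nd5 gave 0.56, 0.58 and 0.51. mt-Co1 did not pass, at 29904, 29123 and 27450 CPM in WT and 30668, 27628 and 28365 in Qk-/- libraries (0.00, SE 0.08, adjusted p = 0.985). As a share of the counts on the 13 genes, mt-Co1 took 53.9% to 55.1% in WT and 42.4% to 47.9% in Qk-/- libraries. mt-Nd6, the only member on the other strand, gave 0.31 (SE 0.22) with overlapping groups. mt-Atp8 had 20, 12 and 11 counts in WT and 60, 38 and 40 in Qk-/- libraries (2.04, SE 0.65, adjusted p = 0.0876). The count of 5 fell to 0 without Qk-/- 1, WT 1 or WT 3 and to 3 without WT 2, and was 7 without Qk-/- 2.

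In HLE-B3, 5 of 13 mitochondrial genes were higher (17% of all genes) and 2 lower (16.3%) in KO cells, so the lower count is near the background. The median log2 fold change of the 13 was 0.06, against -0.02 over all genes. The 3 subunits of complex IV were all higher. MT-CO2 was at 2269, 2069 and 1724 CPM in WT and 2897, 2472 and 3161 in KO (0.49, SE 0.09, adjusted p = 0.000310), MT-CO3 gave 0.33 and MT-CO1 0.25. MT-ATP8 was at 112, 87.9 and 91.6 CPM in WT and 134, 143 and 164 in KO (0.59, SE 0.09, adjusted p = 6.62e-05), and MT-ND3 at 234, 186 and 167 against 353, 272 and 385 (0.78, SE 0.12, adjusted p = 5.08e-05). These groups did not overlap, except for MT-CO1 and MT-CO3. The 2 lower genes are neighbours on the mitochondrial genome. MT-ND5 was at 1221, 1440 and 1366 CPM in WT and 1117, 1183 and 1014 in KO (-0.28, SE 0.06, adjusted p = 0.00269). MT-ND6 overlapped between groups, at 102, 126 and 124 CPM against 107, 81.2 and 61.4 (-0.49, SE 0.14, adjusted p = 0.0103), and did not pass in DESeq2 (adjusted p = 0.115). Only 1 gene was lower without WT 2. MT-ND1, MT-ND2, MT-ND4, MT-ND4L, MT-CYB and MT-ATP6 did not pass, with log2 fold changes of -0.14 to 0.12.

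**Figure D5:**
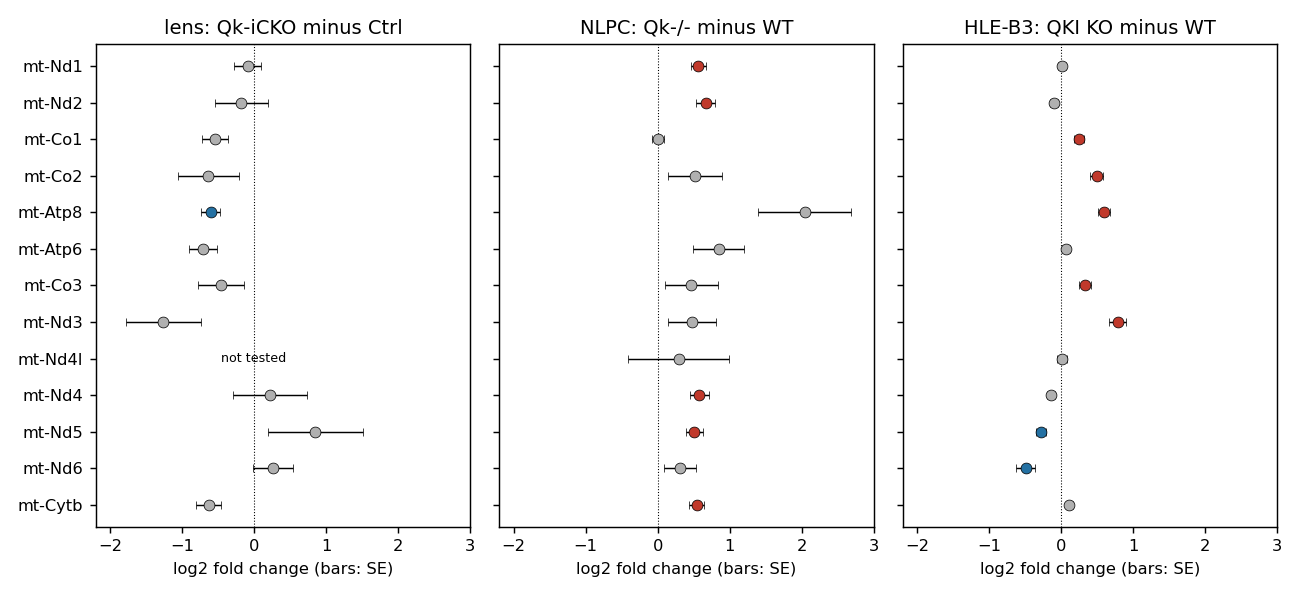
Log2 fold change with its SE for the 13 mitochondrial genes in genome order (mouse names; mt-Cytb is MT-CYB in human), with red for higher and blue for lower at adjusted p under 0.05. mt-Atp8 is lower in lens, 5 genes are higher in NLPCs with mt-Co1 at 0.00, and in HLE-B3 5 are higher while MT-ND5 and MT-ND6 are lower.

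Whether the change differed between lens and NLPCs was tested for 92 mouse members in a joint fit of 16676 genes. The interaction passed for 4 of them, 3 mitochondrial and 1 nuclear, against 8.54% of all genes. mt-Atp8, mt-Atp6 and mt-Cytb had log2 fold changes below 0 in lens and above 0 in NLPCs, with differences (NLPC minus lens, log2) of 2.72 (SE 0.36, adjusted p = 0.000803), 1.66 (SE 0.33, adjusted p = 0.00915) and 1.27 (SE 0.28, adjusted p = 0.0165). Of these mt-Atp8 and mt-Atp6 rest on at most 60 and 204 counts per NLPC library. Gm10925, a nuclear copy identical to mt-Atp6 over the aligned bases, had 83 to 324 counts in the same libraries. The mt-Atp6 level is uncertain, and the part of the copy in its difference was not tested. Cox6a2 differed by -4.14 (SE 1.10, adjusted p = 0.0364), with 0.0439 to 0.614 CPM in NLPCs of either label. The count of 4 was 2 without lens Ctrl 1 or NLPC WT 3 and 9 without lens Qk-iCKO 1.

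Assembly factors, the genes that build the complexes, are given beside the shares over all genes, 8.38% higher and 3.88% lower in lens, 4.74% and 5.96% in NLPCs, and 17% and 16.3% in HLE-B3. In lens, 2 of 5 tested complex III assembly factors were lower, Uqcc1 (-0.82, SE 0.17, adjusted p = 0.0198) and Bcs1l (-0.78, SE 0.20, adjusted p = 0.0435). Coa5, an assembly factor of complex IV, was at 74.2, 71.6 and 87.9 CPM in Ctrl and 39.5, 39.9 and 41.8 in Qk-iCKO lenses (-0.95, SE 0.14, adjusted p = 0.00628), the only call among 21. No factor of complexes I (15), II (4) or V (3) passed there. In NLPCs Ndufaf1 was the only call among 17 complex I factors (-0.57) and Uqcc2 among 6 complex III factors (-0.54). In HLE-B3, 4 of 18 complex I factors were higher and 2 lower, 3 of 6 complex III factors were higher, and 5 of 22 complex IV factors were higher with 0 lower. The higher counts for complexes I and IV lie near the background share. COA3 was at 8.40, 7.42 and 6.77 CPM in WT and 15.1, 13.2 and 12.4 in KO (0.85, SE 0.12, adjusted p = 4.68e-05), and COX20 gave 0.81. NDUFAF1 was lower there too (-0.40).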

How the data were processed

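Total RNA was prepared with a TruSeq stranded kit, and the files hold raw counts per gene that the authors deposited without normalization. Per the study's methods, paired reads were aligned with STAR 2.6.1b to mm10 or hg19 and counted with HTSeq 0.11.0; the submitters' processing notes also name HISAT2 2.0.4 and featureCounts without a role, so the counter of the lens table is not settled. Multi-mapped reads: treatment not given in the sources used here.

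Counts were fitted per system over all genes with edgeR 4.0.16 (R 4.3.3; filterByExpr with a minimum count of 10 and a total of 15, TMM factors, glmQLFit and glmQLFTest, Benjamini-Hochberg adjustment over all genes tested, threshold 0.05). Levels are CPM, the usual depth-scaled count, taken on the TMM-scaled library. DESeq2 1.42.0, other scalings, filters, thresholds and left-out libraries were alternatives. Of the gene rows, 44081 (lens), 54723 (NLPC) and 59899 (HLE-B3) matched the GENCODE annotation used for lengths and positions. On simulated data, 2-fold and 4-fold changes were recovered for 27% and 97% of genes in lens, 68% and 95% in NLPCs and 86% and 99% in HLE-B3. Replicate libraries differed by more than sampling noise (chi-square per degree of freedom 10.2 to 428).

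Replicate numbers come from the labels. Deviations of same-numbered libraries correlated at 0.233, 0.133 and 0.523 in lens and 0.123, 0.320 and 0.145 in NLPCs. Some differently numbered libraries correlated more. Ctrl 2 and Qk-iCKO 1 reached 0.279 in lens, and WT 1 and Qk-/- 3 reached 0.232 in NLPCs. The numbers therefore do not settle a pairing. A fit with the number as a block is an alternative only, given where it changed a call.

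Named genes are every mitochondrial member, the Sdh genes, the isoform sets, and up to 3 called members per complex and direction with the largest change, of which per-library values are given for those the results turn on; Ndufs6 and Ndufa9 were added from the NLPC calls and, like the genes that passed in both cultures and the lower CPM examples, were picked after their values were seen. The values of 1 called gene are not reported here. The members, lists and tests were chosen with earlier results of these data known. In the promoter search a second, shorter motif was tried after the first, and both results are given.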

Additional observations from a re-analysis of the deposited data

Results flagged for a closer look

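The change upon deletion differed between lens and NLPCs by the interaction test in 4 of 92 members tested. That share lies below the 8.54% called over all 16676 genes. The difference (NLPC minus lens, log2) was 2.72 for mt-Atp8, 1.66 for mt-Atp6, 1.27 for mt-Cytb and -4.14 for Cox6a2. Per NLPC library, mt-Atp8 had 11 to 60 counts, mt-Atp6 52 to 204 and Cox6a2 3 to 26. The level of mt-Atp6, which has an identical nuclear copy, is uncertain.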

How the results depend on the processing

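In lens 4 of the 13 mitochondrial genes held at most 35 counts per library; these have near-identical nuclear copies and were at most 291 counts in the deeper NLPC libraries. The 8 lower nuclear genes in NLPCs became 0 without Qk-/- 1, WT 1, WT 2 or WT 3, 17 without Qk-/- 2 and 8 without Qk-/- 3. The lens mt-Atp8 call was kept without Qk-iCKO 1 and lost without any other lens. The cause of the differences between settings was not tested. In lens, 2 nuclear genes were higher and 2 lower at an unadjusted p under 0.05. Mitochondrial genes lower in lens numbered 3 with every gene of at least 1 count, 3 with the replicate block, 4 with DESeq2, 0 with total counts and 5 at an unadjusted p; leaving out 1 library gave 0 to 5. In NLPCs, the nuclear genes lower numbered 4 with total counts, 17 with DESeq2, 16 with every gene of at least 1 count and 29 unadjusted, and 0 to 17 with 1 library left out; 1 was higher with DESeq2 and 1 unadjusted. NLPC mitochondrial genes higher numbered 2 with every gene of at least 1 count, and 0 to 7 with 1 library left out. In HLE-B3, mitochondrial genes lower numbered 1 with DESeq2 and 4 with total counts, and 1 to 3 with 1 library left out; nuclear genes higher numbered 31 to 45 and lower 1 to 3. The HLE-B3 nuclear count of 4 was 1 without WT 1, WT 2 or QKI KO 1 and 2 without QKI KO 3. The interaction numbered 7 with DESeq2, 5 with the replicate block and 2 to 9 with 1 library left out.

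The lens mitochondrial share of counts differed by -0.0166 percentage points (deletion minus control), but by 0.00823 with mitochondrial ribosomal RNA added and 0.00184 without Qk-iCKO 3, the range with 1 library left out being -0.0467 to 0.00184. The range was 1.2 to 1.57 in NLPCs and 0.0700 to 0.149 in HLE-B3. Lens mt-Nd4 and mt-Nd5 went to -0.79 and -0.56 without Qk-iCKO 1, and with 1 library left out they ranged from -0.79 to 0.54 and from -0.56 to 1.25. The median of the HLE-B3 mitochondrial genes was 0.28 when measured against genes of like exon length, an alternative added after seeing the data. Scaling by total counts moved the median of all lens genes to 0.29 and that of the nuclear members to 0.06, which left them -0.23 relative to it. The replicate block gave 38 higher and 4 lower nuclear genes in HLE-B3, where same-numbered libraries correlated at 0.061, 0.057 and -0.050 and share only a number. In NLPCs the block gave 7 lower nuclear and 5 higher mitochondrial genes. The other 156 recomputed counts and shares kept their direction, and the counts stayed within 1.5 times.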

Other observations

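Lists around the complexes that the report did not describe are given for HLE-B3 first, where 17% of all genes were higher and 16.3% lower. The mitochondrial ribosome, which translates the 13 mitochondrial messages, had 33 of 78 tested genes higher and 3 lower in QKI KO cells, with a median log2 fold change of 0.24. MRPL14 was at 22.7, 23.9 and 21.7 CPM in WT and 45.9, 37.7 and 48.6 in KO (0.95, SE 0.09, edgeR adjusted p = 5.27e-07), and the lower genes were MRPS25 (-0.41), MRPS30 (-0.24) and MRPS27 (-0.20). Of 17 genes for transcription, replication and RNA stability of the mitochondrial genome, 7 were higher and 0 lower, among them TFB2M (0.57) and TWNK (0.43). PPARGC1B, a coactivator of mitochondrial biogenesis, was the 1 call among 7 regulators, at 6.34, 6.72 and 7.02 CPM in WT and 3.32, 3.03 and 1.77 in KO (-1.31, SE 0.20, edgeR adjusted p = 9.39e-05). Of 17 electron carrier and nucleotide exchange genes 3 were higher, near the share over all genes, with SLC25A4 at 0.51, COQ2 at 0.47 and SLC25A3 at 0.28. Of 16 tricarboxylic acid cycle genes 3 were higher and 2 lower, also near it, and DLAT of the pyruvate dehydrogenase complex had the largest change, 0.72. BNIP3, a mitophagy receptor, rose by 0.59, and of 8 genes of mitophagy and organelle removal 2 were higher and 1 lower. 1 of 4 complex II factors and 1 of 3 complex V factors were higher (SDHAF1 0.55, ATPAF1 0.31).

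In NLPCs, where 4.74% of all genes were higher and 5.96% lower, 4 of 77 mitochondrial ribosome genes were lower and 0 higher, with a median of -0.28. Cycs (cytochrome c) and Coq2 were the calls among 16 electron carrier genes, at -0.48 and -0.58, and Sucla2 among 16 tricarboxylic acid cycle genes, at -0.36. The mitophagy genes Pink1 (-0.74, SE 0.16, edgeR adjusted p = 0.0254) and Bnip3l (-0.38, SE 0.07, edgeR adjusted p = 0.0165) were lower of 8 tested, and no gene of the transcription list (19), the regulators (10) or the assembly factors of complexes II (4), IV (22) and V (3) passed.

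In lens, Mrpl49 was the only call among 75 mitochondrial ribosome genes (-0.81). Esrrg, a nuclear receptor of oxidative tissues, was at 0.331, 1.35 and 0.755 CPM in Ctrl and 4.17, 2.32 and 2.93 in Qk-iCKO lenses (1.93, SE 0.48, edgeR adjusted p = 0.0411). Plbd1, of the list of mitophagy and organelle removal, was higher from a low level (3.04, SE 0.67, edgeR adjusted p = 0.0269), with 0.0713 to 0.249 CPM in Ctrl and 0.552 to 1.82 CPM in Qk-iCKO lenses. Macrophage, endothelial, fibroblast, neural and lens fibre markers moved with the same groups, and their part in these values was not tested. No gene passed among 16 electron carriers, 16 tricarboxylic acid cycle genes and 17 genes of the transcription list. Of the cell type lists in lens whose groups overlapped, photoreceptor markers summed to 2.13 to 589 CPM in Ctrl and 13.7 to 87.0 CPM in Qk-iCKO lenses, lens epithelial markers to 199 to 307 and 265 to 314 CPM, and erythroid markers to 1.3 to 2.98 and 1.21 to 6.32 CPM.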
